A study of Mus musculus with 24 samples.

Results

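The retinas of mice exposed to blast-mediated traumatic brain injury (bTBI) were compared with those of sham-treated mice at 8 days after injury, across all genes of the table of that timepoint. The series holds 24 retinas, and the comparison takes the 12 that the labels place at 8 days, 6 bTBI and 6 sham. The mice were adult males of the inbred strain C57BL/6J, and no transgene or engineered allele is named for either group. The bTBI mice were anesthetized with ketamine and xylazine, and the left side of the head faced an overpressure wave in a closed chamber, while sham mice were handled alike but were not exposed. Anesthesia and its reversal are therefore shared by both groups. The methods give as many mice as retinas at this timepoint, so a replicate was taken as 1 mouse, and the eye was the one that faced the wave.

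The table lists 14922 genes, each with a count scaled to the library of its retina, called CPM here. Depth, read from the smallest step between the values of a retina, ranged from 14301989 to 24102502 reads in sham and from 15097829 to 25158638 reads in bTBI retinas. Where 3 values follow a gene for a group, they are the lowest retina, the median and the highest retina of the 6, in CPM. Differences are log2 fold changes of bTBI against sham on the log2(CPM + 1) scale, on which the change of a gene near 1 CPM is understated. A gene was called higher or lower where limma, fitted across all 14922 genes, gave a Benjamini-Hochberg adjusted p under 0.005. The labels name the cell type as retinal ganglion cell (RGC), whereas the methods describe whole retina. Glul, the glutamine synthetase of Müller glia, was at 3725, 3916 and 4054 CPM in sham retinas, so the libraries hold more than RGCs. In such bulk tissue fewer cells of a type and less RNA per cell cannot be told apart.

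A few retinas stood apart from the others of their group. The 18 lens genes in the table summed to 113 to 985 CPM in sham retinas, but to 5069 CPM in bTBI replicate 5 and 9440.0 CPM in bTBI replicate 6. The 11 oligodendrocyte and myelin genes summed to 819.5 to 1383 CPM in sham retinas and to 4593 CPM in bTBI replicate 3. These are the lens-rich and the myelin-rich retinas whose omission is reported beside the results. In bTBI replicate 2 the genes that the comparison of the groups called higher were, at the median, 0.43 above the sham mean on the log2 scale, against 0.90 to 1.08 in the other 5 bTBI retinas, and the genes called lower were at -0.23, against -0.52 to -0.39 in the others. Markers of other neighboring tissues overlapped between the groups, with Rpe65 of the pigment epithelium at 451, 597 and 873 CPM in sham and 384, 479 and 662 CPM in bTBI, Hbb-bs of red cells at 22.6, 31.6 and 42.5 and 23.7, 25.2 and 38.5 CPM and Cldn5 of endothelium at 14.9, 20.2 and 22.5 and 13.8, 19.3 and 23.3 CPM. Of the 20 endothelium and pericyte genes 0 were called by limma, while 4 were above 0 and 0 below 0 at an unadjusted p under 0.05, where 8.32% of all genes stood above and 8.93% below 0. Their mean log2(CPM + 1) was 4.45 to 4.68 in sham and 4.54 to 4.76 in bTBI retinas. All 12 RNA samples of this timepoint were extracted with the same kit, and the labels give no other batch.

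The retina sends its signals to the brain along the axons of RGCs, which lie unmyelinated on its inner surface and gain myelin behind the eye. Injury of these axons is known to switch on stress genes in the neurons, to turn Müller glia and astrocytes reactive through cytokines of the gp130 receptor family, and to change the state of microglia, the resident phagocytes. Interferon response genes, which arm cells against viruses, are known to be induced in glia of injured nervous tissue without infection.

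Of the 14922 genes, 189 were called higher (1.27%) and 147 lower (0.985%). In 238 genes (1.59%) the lowest bTBI retina stood above the highest sham retina, and in 336 (2.25%) the highest bTBI retina stood below the lowest sham retina. At an unadjusted p under 0.05, 2575 genes (17.3%) passed, which is the background for the counts at that p given with the lists. The median log2 fold change of all genes was -0.0002. Among the called genes the log2 fold change ran from 0.24 to 3.03 in the higher and from -1.38 to -0.21 in the lower ones. The groups did not overlap in 153 of the 189 higher and in 138 of the 147 lower genes. Leaving out retinas can only remove overlap, and without bTBI 3, 5 and 6 these counts were 154 and 138, beside 422 (2.83%) higher and 559 (3.75%) lower genes without overlap in the whole table. All 336 kept their direction without bTBI replicates 5 and 6, without bTBI replicate 3 and without the 3 together. For the 291 called genes without overlap this was fixed in advance, since no omission of retinas can turn their direction. The share of the log2 fold change that was kept had a median of 0.92 (0.74 to 1.15) without bTBI 5 and 6, of 0.98 (0.80 to 1.16) without bTBI 3 and of 0.85 (0.62 to 1.15) without all 3. Rnf213, a ubiquitin ligase gene, kept the smallest share in the first case, Gfap in the next and Stmn2, a tubulin-binding protein gene of neurons, in the last.

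Most omissions of retinas gave fewer calls. Without bTBI 5 and 6, 112 genes passed (0.751%), and 111 of them were among the 336. Without bTBI 3, 257 genes passed (1.72%), 248 of them among the 336. Without all 3, which leaves 3 bTBI retinas against 6 sham retinas, 8 genes passed (0.0536%). These 8 were Mmp12, Ecel1, Isg15, Oasl2, Irf9, Selplg, Gfap and the noncoding transcript 6430562O15Rik, all higher in bTBI. At an adjusted p under 0.05 the same fit passed 249 genes (1.67%), 225 of them among the 336, and at an unadjusted p under 0.05 it passed 1761 genes (11.8%). These held all 336, which were chosen with the same retinas in the fit. Leaving out 1 retina gave 189 to 486 calls. There were 189 without sham 2, 206 without sham 3 and 204 without sham 5. Without bTBI 5 there were 204, without bTBI 6 217 and without bTBI 2 486. All 336 genes kept their direction in each case, as the 291 without overlap must. Of the 336, 181 passed in each of the 12 omissions. Among the called genes named here, 92 of 126 did so, while Tmem173, H2-T22, Tap1, Psmb9, Trim30d, Clec7a, Blnk, Csf3r, Il6st, Gfap, Vim, Hmox1, Fgf11, Atp1b1, Ctxn3, Plxnd1, P2rx7, Eno2, Rnf213, Shisa5 and Stmn2 passed in 4 or fewer of them. The groups overlapped in 45 of the 336 called genes, among them H2-K1, S100a6 and Serping1, and in these 3 genes sham replicate 4 was the highest sham and bTBI replicate 2 the lowest bTBI retina.

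Many genes of the interferon response were called higher and none of those listed here lower. Of the guanylate-binding proteins (GBPs) and immunity-related GTPases, which attack the vacuoles of intracellular pathogens, 10 of 13 measured genes were called higher and 0 lower, and their median log2 fold change was 1.0. To show what these genes have in common that the comparison did not use, their promoters were read from RefSeq (GRCm38.p6, 250 bases before to 50 bases after the start). The interferon response element was searched on both strands by its core GAAANNGAAA, and the STAT element by TTCNNNGAA. In the windows below, each 60 bases on the strand of the gene, capitals mark the GAAANNGAAA core nearest to the transcription start, which reads TTTCNNTTTC where it lies on the other strand. The windows are examples from called genes that hold the core, taken from GTPases, antiviral effectors and the light chain of MHC class I. Many called genes of these and other lists lack the core, as counted below.
Gbp2, chr3:142620579-142620638, plus strand: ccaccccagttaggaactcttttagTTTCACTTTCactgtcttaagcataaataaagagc
Gbp3, chr3:142559980-142560039, plus strand: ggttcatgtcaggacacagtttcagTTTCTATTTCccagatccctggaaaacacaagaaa
Gbp5, chr3:142496744-142496803, plus strand: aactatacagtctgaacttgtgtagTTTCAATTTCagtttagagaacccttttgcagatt
Gbp7, chr3:142530258-142530317, plus strand: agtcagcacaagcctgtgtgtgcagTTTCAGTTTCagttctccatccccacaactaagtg
Igtp, chr11:58199497-58199556, plus strand: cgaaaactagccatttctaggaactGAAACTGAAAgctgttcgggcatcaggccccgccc
Irgm1, chr11:48871410-48871469, minus strand: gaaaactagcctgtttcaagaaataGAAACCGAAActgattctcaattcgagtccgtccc
Irgm2, chr11:58214888-58214947, plus strand: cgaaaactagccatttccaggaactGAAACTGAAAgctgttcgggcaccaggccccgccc
Isg15, chr4:156200850-156200909, minus strand: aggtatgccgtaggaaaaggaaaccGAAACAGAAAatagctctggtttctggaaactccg
Ifit3, chr19:34583382-34583441, plus strand: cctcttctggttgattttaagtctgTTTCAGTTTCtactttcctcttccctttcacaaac
B2m, chr2:122147523-122147582, plus strand: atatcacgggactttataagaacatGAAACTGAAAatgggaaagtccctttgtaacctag

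The core stood in the promoter of all 7 called GTPase genes that had one in the RefSeq table, and in 0 of 2 GTPase genes that were not called. Other lists varied. The core stood in 4 of 9 called and 0 of 6 uncalled genes of MHC class I and peptide loading. For cytosolic nucleic acid sensors it stood in 3 of 5 and 1 of 7, and for activated phagocytic microglia in 3 of 9 and 1 of 14. Among antiviral effectors it stood in 11 of 24 called (45.8%) and 5 of 13 uncalled genes (38.5%), among reactive macroglia genes in 1 of 12 and 4 of 14, and among interferon receptors and their signal chain in 0 of 3 and 2 of 13. It stood in 32 of the 144 promoters of genes called higher (22.2%) and in 5 of the 100 of genes called lower (5.0%), against 1079 of all 27025 genes with a promoter (3.99%) and 375 of the 10807 measured ones (3.47%). The STAT core stood in 24 of the 144 promoters of genes called higher (16.7%) and in 10 of the 100 of genes called lower (10%), against 9.55% of all genes with a promoter and 8.04% of the measured ones. Over all 32851 promoters of the table the 2 cores overlapped in 24. The windows of Igtp and Irgm2 have the same letter at 58 of 60 positions, and these 2 genes resemble each other closely enough that reads may be shared between them. A match is a description of the letters and not of binding.

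**Figure D1:**
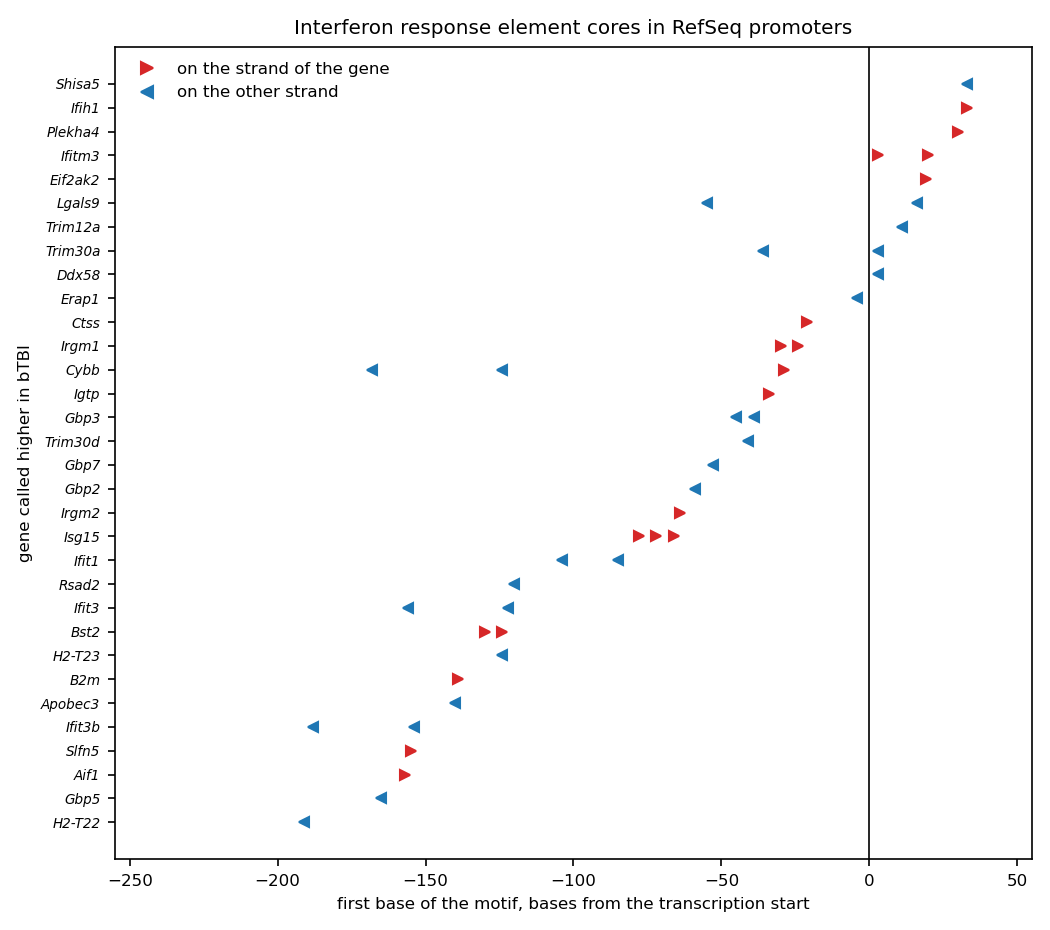
Position of each GAAANNGAAA core (x axis, bases from the transcription start, vertical line at 0) in the RefSeq promoters of the 32 genes called higher in bTBI that hold one (y axis), with the strand given by the direction and color of the marker. The matches run from far upstream in H2-T22 and Ifit3b to the first transcribed bases in Shisa5 and Ifih1.

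The 10 called GTPase transcripts were higher in every bTBI retina than in any sham retina. Gbp2, which encodes a guanylate-binding protein, was at 6.04, 6.98 and 9.51 CPM in sham and at 13.6, 30.6 and 33.3 CPM in bTBI retinas, and its log2 fold change was 1.75 (SE 0.17, adjusted p = 7.87e-05). The lowest bTBI value was that of replicate 2, and the other 5 lay between 27.9 and 33.3 CPM. Irgm1, which acts in autophagy of vacuoles, was at 9.35, 9.95 and 13.3 CPM in sham and at 15.4, 26.7 and 32.0 CPM in bTBI retinas (log2 fold change 1.18, SE 0.14, adjusted p = 0.000244). Gbp3 was at 5.18, 6.83 and 8.42 CPM against 11.9, 20.4 and 34.4 CPM (log2 fold change 1.49, SE 0.18, adjusted p = 0.000244) and was highest in the lens-rich bTBI replicate 6. Leaving out the 3 retinas cannot create overlap in these 10 genes, so that omission does not test it. The median of the 13 members was 0.97 without the 3 retinas. Gbp4, which was not called, had a log2 fold change of 0.71 (SE 0.17, adjusted p = 0.0193) and was at 0.895, 2.01 and 2.40 CPM in bTBI retinas. The genes Gbp5, Gbp7, Gbp3 and Gbp2 lie side by side on chr3:142493978-142638008 (GRCm38), and all of these 4 were called higher.

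Antiviral effectors are the products that block viral entry, translation and replication. Of the 44 measured members, 28 were called higher and 0 lower, with a median log2 fold change of 0.87, and 0.66 without the 3 retinas. Ifit1, which binds viral RNA, was at 4.21, 5.74 and 6.79 CPM in sham and at 9.61, 30.4 and 42.2 CPM in bTBI retinas (log2 fold change 2.09, SE 0.26, adjusted p = 0.000271). Isg15, a ubiquitin-like protein that is joined to other proteins, was at 1.55, 2.003 and 2.78 CPM in sham and at 4.71, 8.00 and 10.7 CPM in bTBI retinas (log2 fold change 1.503, SE 0.15, adjusted p = 7.87e-05). Oasl2, an oligoadenylate synthetase-like gene, was at 14.3, 16.04 and 16.6 CPM against 31.5, 62.7 and 100.5 CPM (log2 fold change 1.92, SE 0.19, adjusted p = 7.87e-05). In these 3 genes the groups did not overlap, bTBI 2 was the lowest and bTBI 6 the highest bTBI retina. All 4 genes of the Ifit family in the table were called higher, among them Ifit3 and Ifit3b, whose near-identical sequences may share reads. They lie together on chr19:34550694-34650009. Of the 39 measured Trim genes, 4 were called higher, of which Trim30a (log2 fold change 1.36, adjusted p = 0.000325), Trim30d and Trim12a are neighbors on chr7:104299894-104507849 and Trim30a and Trim30d are close copies.

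Sensors of foreign nucleic acid in the cytosol stand before interferon production. Of 14 measured, 7 were called higher and 0 lower, with a median of 0.36. Of these 7, Eif2ak2 is also counted among the antiviral effectors and Irf7 in the list of receptors and signal chain below. Eif2ak2, the kinase PKR that halts translation on double-stranded RNA, was at 6.85, 7.60 and 7.92 CPM in sham and at 10.6, 15.8 and 20.1 CPM in bTBI retinas (log2 fold change 0.94, SE 0.11, adjusted p = 0.000238). Ddx58, the RNA sensor RIG-I, was at 9.69, 10.7 and 12.1 CPM against 14.5, 20.95 and 24.5 CPM (log2 fold change 0.86, SE 0.10, adjusted p = 0.000238). For both genes the groups did not overlap. Tmem173, the adaptor STING of the DNA sensing pathway, was at 0.893, 1.07 and 1.36 CPM against 1.41, 2.75 and 4.29 CPM (log2 fold change 0.81, SE 0.16, adjusted p = 0.00453).

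Receptors and transcription factors of the pathway were not alike. The receptor chains Ifnar1 (log2 fold change 0.07, adjusted p = 0.626), Ifnar2 (log2 fold change 0.33, adjusted p = 0.128) and Ifngr1 (log2 fold change 0.09, adjusted p = 0.315) were not called, and their values in sham and bTBI retinas overlapped. Irf9, the DNA-binding part of the factor that reads the interferon response element, was at 11.02, 11.9 and 14.7 CPM in sham and at 20.5, 33.0 and 48.9 CPM in bTBI retinas (log2 fold change 1.37, SE 0.15, adjusted p = 0.000174). Stat2, its partner, had a log2 fold change of 0.36 (SE 0.09, adjusted p = 0.0228) and was not called. Irf7, which amplifies type I interferon production, was called higher (log2 fold change 1.14, adjusted p = 0.000922), and so was Irf8, a factor of microglia and other myeloid cells (log2 fold change 0.996, adjusted p = 0.000954). Irf1 (log2 fold change 0.71, adjusted p = 0.00803) and Irf3 (log2 fold change 0.08, adjusted p = 0.723) were not called. Usp18, which dampens the receptor signal, was at 1.91, 2.11 and 3.01 CPM against 3.44, 10.4 and 12.1 CPM (log2 fold change 1.53, SE 0.21, adjusted p = 0.000499). Of the 20 measured genes of the list 5 were called higher and 0 lower, at a median of 0.35, and of 0.18 without the 3 retinas. The interferon genes Ifnb1 and Ifng are not analysed here.

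**Figure D2:**
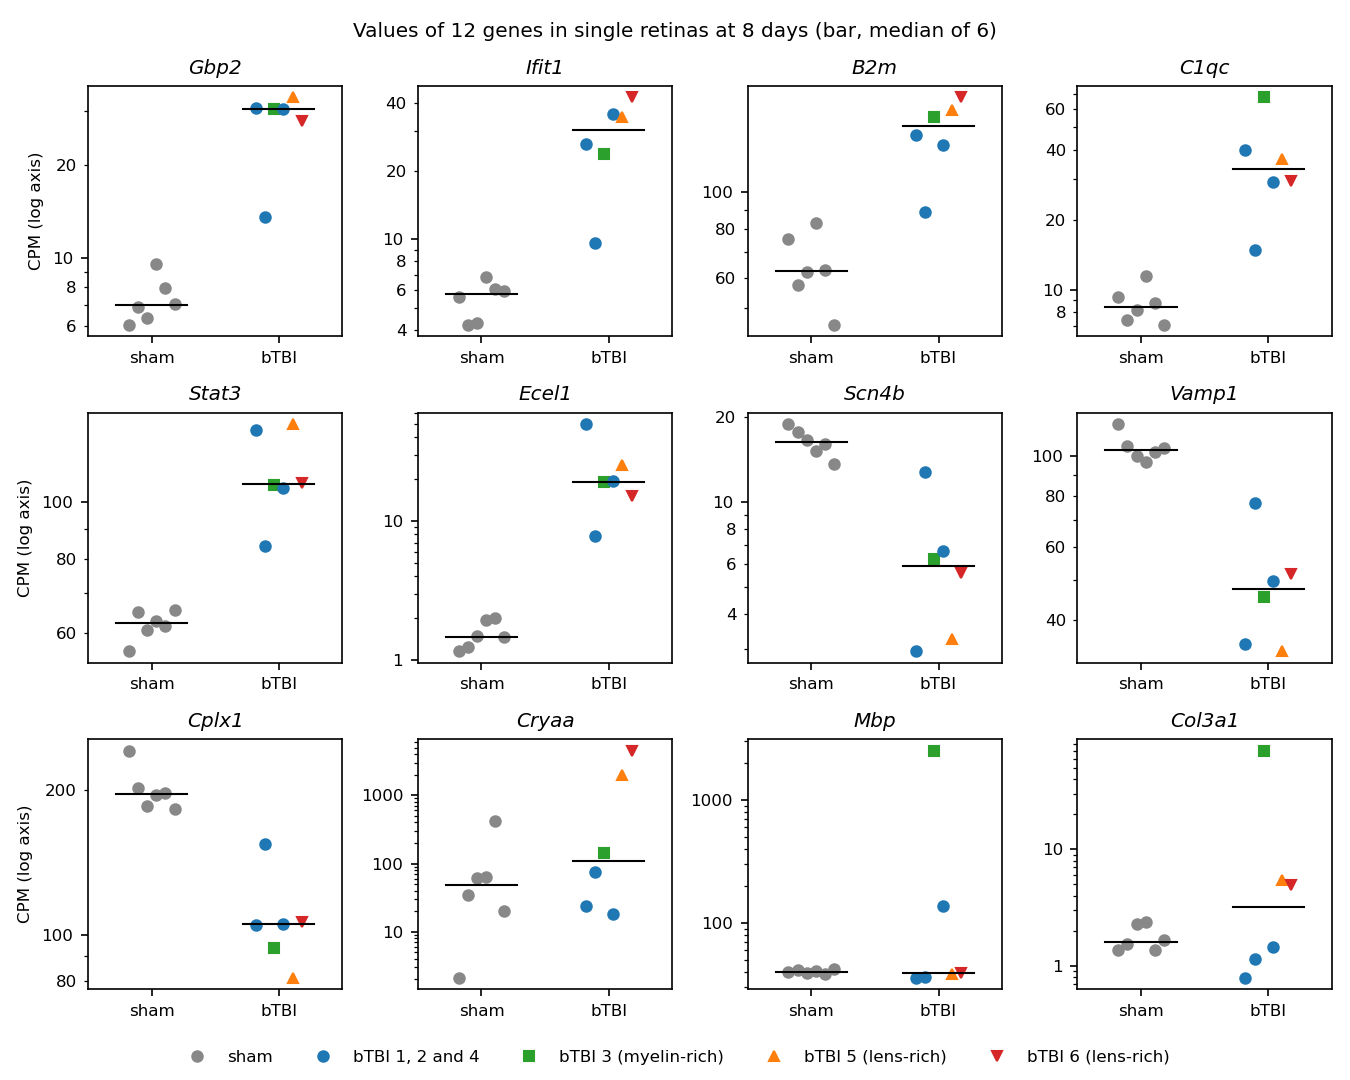
CPM (y axes, log scale) of 12 genes in each retina (points) by group (x axes), with a bar at the median of 6 and separate markers for the myelin-rich bTBI 3 and the lens-rich bTBI 5 and 6. Gbp2, Ifit1, B2m, C1qc, Stat3 and Ecel1 were higher and Scn4b, Vamp1 and Cplx1 lower in all 6 bTBI retinas, whereas Cryaa, Mbp and Col3a1 were high in 1 or more of the 3 marked retinas.

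MHC class I molecules show peptides of the cell's own proteins to T cells. Of the 19 measured genes of MHC class I and peptide loading, 9 were called higher and 0 lower (median 0.59, and 0.54 without the 3 retinas). B2m, the light chain shared by these molecules, was at 45.3, 62.3 and 82.9 CPM in sham and at 88.9, 148 and 176 CPM in bTBI retinas (log2 fold change 1.13, SE 0.15, adjusted p = 0.000412). H2-D1, a heavy chain, was at 67.7, 72.6 and 87.4 CPM against 93.2, 141 and 152 CPM (log2 fold change 0.84, SE 0.10, adjusted p = 0.000238). H2-K1, the other classical heavy chain of this strain, was at 39.7, 41.4 and 59.7 CPM against 58.0, 94.6 and 116 CPM (log2 fold change 1.06, SE 0.14, adjusted p = 0.000361). In H2-K1 the highest sham retina, replicate 4, stood just above the lowest bTBI retina, replicate 2. The close relatives H2-Q4 (log2 fold change 1.31, adjusted p = 0.00058), H2-Q6 (log2 fold change 1.38, adjusted p = 0.000271), H2-T22 (log2 fold change 0.59, adjusted p = 0.00273) and H2-T23 (log2 fold change 1.39, adjusted p = 0.000689) were called higher too, but reads may have been split between such copies. Tap1, which carries peptides to these molecules, had a log2 fold change of 0.86 (SE 0.16, adjusted p = 0.00372).

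Of 9 measured genes of the immunoproteasome and its activator, 2 were called higher. Psmb8 was at 1.89, 2.57 and 3.19 CPM in sham and at 4.76, 7.30 and 8.32 CPM in bTBI retinas (log2 fold change 1.13, SE 0.12, adjusted p = 0.000174), and Psmb9 was at 0.969, 1.63 and 2.10 CPM against 2.26, 3.22 and 4.13 CPM (log2 fold change 0.71, SE 0.13, adjusted p = 0.00374). The groups did not overlap in either gene. Psmb10, the other catalytic subunit of this kind, was not called (log2 fold change 0.38, adjusted p = 0.0219). Of the 31 constitutive subunits 0 were called by limma, 0 had an unadjusted p under 0.05 against 17.3% of all genes, and their median was -0.05. Of 8 genes of MHC class II, which shows peptides taken up from outside, only the costimulatory gene Cd86 was called (log2 fold change 0.78, adjusted p = 0.000857). Cd74, the invariant chain, ran from 0.872 to 10.99 CPM in sham and from 3.34 to 19.7 CPM in bTBI retinas, with overlapping groups (log2 fold change 1.5, adjusted p = 0.055), and its log2 fold change was 0.82 without the 3 retinas. Cd274, the checkpoint ligand PD-L1, was at 2.81, 3.26 and 3.93 CPM against 5.47, 6.86 and 8.29 CPM (log2 fold change 0.85, SE 0.10, adjusted p = 0.000246).

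Genes of microglia were called higher in both the list of the resting state and that of the phagocytic state. Of 21 genes of resting microglia, 10 were called higher and 0 lower (median 0.81), and of 27 genes of activated phagocytic microglia 10 were called higher and 0 lower (median 0.82). Without the 3 retinas the medians were 0.62 and 0.57. Cx3cr1, the fractalkine receptor of microglia, was at 6.93, 8.98 and 9.90 CPM in sham and at 12.9, 20.3 and 30.0 CPM in bTBI retinas (log2 fold change 1.18, SE 0.16, adjusted p = 0.000347). Selplg, a ligand of selectins, was at 5.58, 6.29 and 7.54 CPM against 11.5, 13.4 and 21.7 CPM (log2 fold change 1.07, SE 0.13, adjusted p = 0.000271). Both were highest in the myelin-rich bTBI 3, and both stayed above every sham retina in each bTBI retina. Tmem119, a marker of resident microglia, was called higher (log2 fold change 1.04, adjusted p = 0.00101), and P2ry12, the purinergic receptor of the resting state, was not called (log2 fold change 0.63, adjusted p = 0.0193).

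Among genes of the phagocytic state, Mmp12, the macrophage elastase, was at 0.343 CPM or less in every sham retina and at 3.16, 4.54 and 7.21 CPM in bTBI retinas (log2 fold change 2.31, SE 0.16, adjusted p = 3.58e-06). It was at 3.16 CPM in bTBI 2, which was the lowest bTBI retina, and its log2 fold change was 2.33 without the 3 retinas. Trem2, a lipid receptor of phagocytes, was at 1.95, 2.22 and 2.84 CPM against 3.35, 6.57 and 14.5 CPM (log2 fold change 1.26, SE 0.22, adjusted p = 0.00222), and Clec7a, the receptor Dectin-1, was at 0.510, 0.867 and 1.12 CPM against 1.23, 3.82 and 11.5 CPM (log2 fold change 1.52, SE 0.28, adjusted p = 0.00371). Both were highest in bTBI 3, and without it alone their log2 fold changes were 1.07 and 1.26. Mpeg1, which encodes the pore-forming perforin-2 of phagocytes, was at 7.89, 11.1 and 18.3 CPM against 18.6, 38.4 and 84.1 CPM (log2 fold change 1.74, SE 0.26, adjusted p = 0.000754) and Pld4, a nuclease of the endolysosome, at 1.79, 2.49 and 3.31 CPM against 4.81, 8.98 and 13.05 CPM (log2 fold change 1.45, SE 0.17, adjusted p = 0.000241). Of 38 lysosomal genes 4 were called higher, among them Grn, progranulin (log2 fold change 0.63, adjusted p = 0.00155), and the median of this list was 0.14.

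Some receptors for antibodies and for microbial products were called higher. Of 16 Fc receptors and genes of their signal chain, 5 were called higher (median 0.92). Fcgr1, the high-affinity IgG receptor, was at 0.787, 1.03 and 1.43 CPM in sham and at 1.74, 3.24 and 5.80 CPM in bTBI retinas (log2 fold change 1.06, SE 0.18, adjusted p = 0.00152). Lyn, a kinase that acts behind these receptors, was at 1.77, 2.14 and 2.38 CPM against 2.92, 4.88 and 7.31 CPM (log2 fold change 0.93, SE 0.14, adjusted p = 0.000755). Of 17 Toll-like receptors and adaptors 5 were called higher (median 0.37), with Tlr2, a receptor of bacterial lipoproteins (log2 fold change 1.296, adjusted p = 0.000922), and the pair Cd180 (log2 fold change 1.51, adjusted p = 0.000238) and Ly86 (log2 fold change 1.24, adjusted p = 0.00119), whose products form a complex, among them. Of 13 chemokines and chemokine receptors, Cx3cr1 was the only one called, and of 5 genes of the inflammasome 0 were called by limma and 2 had an unadjusted p under 0.05.

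Complement tags cells and synapses for removal. Of 18 measured genes 7 were called higher and 0 lower, with a median of 0.63, and of 0.51 without the 3 retinas. The chains of C1q, the starter of the classical pathway, were all called higher. C1qc was at 7.07, 8.46 and 11.5 CPM in sham and at 14.9, 33.0 and 67.4 CPM in bTBI retinas (log2 fold change 1.82, SE 0.24, adjusted p = 0.000373). Its neighbors C1qb (log2 fold change 1.68, adjusted p = 0.000948) and C1qa (log2 fold change 1.70, adjusted p = 0.00143) on chr4:136880129-136898803 were called as well, and all 3 were highest in bTBI 3. C4b, which C1 cleaves next, was at 6.01, 9.04 and 20.4 CPM against 21.6, 60.9 and 99.0 CPM (log2 fold change 2.40, SE 0.32, adjusted p = 0.000385), and sham 4, at 20.4 CPM, was the highest sham retina. Serping1, the inhibitor of C1, was at 8.76, 10.5 and 20.3 CPM against 17.6, 32.4 and 49.8 CPM (log2 fold change 1.41, SE 0.23, adjusted p = 0.00144). C3, on which all pathways meet, was at 3.02, 6.23 and 38.6 CPM in bTBI retinas with 38.6 CPM in bTBI 3 (log2 fold change 1.12, SE 0.40, adjusted p = 0.127), was not called, and had a log2 fold change of 0.67 without that retina.

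Lists of blood leukocytes were thinly covered by the table. Of 18 genes of T and NK cells 1 was measured, of 10 of B cells 3, of 14 of neutrophils 3 and of 18 of monocytes and border macrophages 5. The defining markers Cd3e, Ms4a1, S100a8 and Ccr2 are not analysed here. Of those measured, the B cell genes Ighm, an antibody chain (log2 fold change 0.92, SE 0.12, adjusted p = 0.000325), and Blnk, an adaptor that microglia also use (log2 fold change 1.03, adjusted p = 0.00449), and the neutrophil gene Csf3r, the G-CSF receptor (log2 fold change 1.14, adjusted p = 0.00459), were called higher. Ighm was at 1.21, 1.57 and 1.83 CPM in sham and at 2.73, 3.75 and 5.01 CPM in bTBI retinas without overlap. The neutrophil list also holds Mmp9, a gelatinase, which fell by 0.53 on the log2 scale (SE 0.08, adjusted p = 0.000925) and was at 26.3, 31.9 and 32.8 CPM against 17.3, 20.8 and 25.2 CPM. The summed level of the 5 monocyte and border macrophage genes was 88.3 to 109 CPM in sham and 91.5 to 231 CPM in bTBI retinas, highest in bTBI 3. The part of leukocytes in the results was not tested.

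Cytokines of the gp130 family signal through Stat3 in Müller glia. Of 22 measured genes of the family, its receptors and Stat3 targets, 9 were called higher and 0 lower, with a median of 0.50, and of 0.42 without the 3 retinas. Stat3 itself was at 55.9, 62.3 and 65.6 CPM in sham and at 84.4, 107 and 135 CPM in bTBI retinas (log2 fold change 0.83, SE 0.09, adjusted p = 0.000192). Osmr, the receptor chain of oncostatin M, was at 22.6, 26.5 and 29.2 CPM against 35.0, 41.4 and 54.0 CPM (log2 fold change 0.68, SE 0.09, adjusted p = 0.000436), and Il6st, which encodes gp130, was at 180.2, 189 and 206 CPM against 213, 238 and 273 CPM (log2 fold change 0.32, SE 0.06, adjusted p = 0.00352). Lifr, the partner chain for LIF, was not called (log2 fold change 0.10, adjusted p = 0.561). The targets Edn2, an endothelin (log2 fold change 1.70, adjusted p = 0.000292), Fgf2, a growth factor of injured retina (log2 fold change 1.26, adjusted p = 0.000381), and Cebpd, a transcription factor (log2 fold change 1.22, adjusted p = 0.00097), were higher in 6 of 6 bTBI retinas than in any sham retina. Socs3, the feedback inhibitor, had a log2 fold change of 0.80 (SE 0.17, adjusted p = 0.00987) and was not called.

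Of 32 genes of reactive macroglia, 16 were called higher and 0 lower, and most of these 16 are also counted in lists above. Gbp2, Psmb8 and H2-D1 stand in the lists of GTPases, immunoproteasome and MHC class I, and C4b and Serping1 in that of complement. Stat3, Edn2, Fgf2, Osmr, Cebpd, Gfap and A2m stand in the gp130 list. The median of the macroglia list was 0.73 with all retinas and 0.43 without the 3. Gfap, the intermediate filament of reactive glia, was at 15.4, 23.5 and 27.1 CPM in sham and at 57.7, 113 and 737 CPM in bTBI retinas, with 737 CPM in bTBI 3 (log2 fold change 2.51, SE 0.45, adjusted p = 0.00273). Without bTBI 3 its log2 fold change was 2.02, and without the 3 retinas 2.20. Nes, the filament nestin, was at 9.64, 11.1 and 13 CPM against 17.3, 24.03 and 40.5 CPM (log2 fold change 1.06, SE 0.16, adjusted p = 0.000824), and Cd44, a hyaluronan receptor, at 10.03, 12.9 and 14.4 CPM against 17.6, 28.2 and 32.4 CPM (log2 fold change 0.96, SE 0.13, adjusted p = 0.000409). Vim, vimentin, overlapped between the groups (log2 fold change 0.78, adjusted p = 0.00383). Of 16 S100 proteins and annexins 1 was called, S100a6, at 4.55, 5.35 and 9.81 CPM against 8.67, 21.9 and 59.3 CPM (log2 fold change 1.79, SE 0.30, adjusted p = 0.00182). The 24 genes of resting Müller glia had 0 calls by limma, 8 with an unadjusted p under 0.05 above and 4 below 0 (8.32% and 8.93% of all genes), and a median of 0.11.

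The list of axon injury and regeneration genes, which is not limited to genes induced by injury, was split. Of 32 measured 5 were called higher and 2 lower, Stmn2 among the lower ones, with a median of 0.11. Ecel1, an endopeptidase gene of injured neurons, was at 1.15, 1.47 and 2.01 CPM in sham and at 7.82, 19.2 and 50.0 CPM in bTBI retinas (log2 fold change 3.03, SE 0.29, adjusted p = 7.87e-05). It was highest in bTBI 1, and its log2 fold change was 3.03, 3.04 and 3.05 without bTBI 5 and 6, without bTBI 3 and without all 3. Atf3, a transcription factor of the injury response, was at 4.61, 6.53 and 8.59 CPM against 11.6, 15.6 and 23.1 CPM (log2 fold change 1.16, SE 0.16, adjusted p = 0.000473), Hrk, a pro-apoptotic BH3-only gene, at 0.532, 0.725 and 1.11 CPM against 1.79, 2.86 and 3.47 CPM (log2 fold change 1.04, SE 0.14, adjusted p = 0.000381) and Tnfrsf12a, the TWEAK receptor, at 5.14, 6.39 and 7.67 CPM against 9.45, 12.0 and 17.7 CPM (log2 fold change 0.84, SE 0.13, adjusted p = 0.00119). In these 4 genes bTBI 1 was the highest retina and the groups did not overlap. Other stress programs had few calls. These were Hrk among 28 genes of p53 and the BCL2 family, the chaperone cofactor Bag3 (log2 fold change 0.56, adjusted p = 0.00131) among 22 heat shock genes and the heme oxygenase gene Hmox1 (log2 fold change 0.58, adjusted p = 0.00284) among 29 NRF2 targets. Of 32 genes of the integrated stress and unfolded protein response 0 were called by limma and 6 had an unadjusted p under 0.05, a share near the 17.3% of all genes.

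A minority of genes for the electrical activity of neurons was called lower, beside 0.985% of all genes. Of 16 voltage-gated sodium channel subunits and FGF homologous factors, which tune these channels, 6 were called lower and 0 higher, with a median log2 fold change of -0.27, and of -0.24 without the 3 retinas. Scn4b, a beta subunit of fast-firing neurons, was at 13.6, 16.3 and 18.9 CPM in sham and at 2.95, 5.92 and 12.8 CPM in bTBI retinas and fell by 1.38 on the log2 scale (SE 0.23, adjusted p = 0.00148). Scn1a, a pore-forming subunit, was at 82.3, 95.6 and 108 CPM against 48.8, 57.3 and 81.5 CPM and fell by 0.70 (SE 0.10, adjusted p = 0.000727). The beta subunit Scn2b (log2 fold change -0.40, adjusted p = 0.00136) and the factors Fgf12 (log2 fold change -0.49, adjusted p = 0.00108) and Fgf11 (log2 fold change -0.31, adjusted p = 0.00376) were called lower too. In these 5 genes every bTBI retina was below every sham retina, and bTBI 2 was the nearest to sham in 4 of them. The pore-forming subunits Scn2a (log2 fold change -0.37, adjusted p = 0.0159) and Scn8a (log2 fold change -0.38, adjusted p = 0.00944) were not called, nor were Scn3b (log2 fold change -0.23, adjusted p = 0.109) and Fgf13 (log2 fold change -0.18, adjusted p = 0.0571). In the FGF family the direction was mixed, since Fgf2 was called higher and Fgf1, a growth factor of neurons, fell from 86.3, 96.1 and 109 to 50.0, 62.6 and 77.2 CPM (log2 fold change -0.64, SE 0.08, adjusted p = 0.000357).

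A minority of potassium channels and of scaffolds that hold channels at the axon initial segment and at nodes was called lower. Among all genes the share called lower was 0.985%. Of 60 potassium channel genes 4 were called lower and 0 higher, 26 had an unadjusted p under 0.05 below 0 and 1 above (8.93% and 8.32% of all genes), and the median was -0.14. Kcnip4, a partner of Kv4 channels, was at 46.9, 49.7 and 52.1 CPM in sham and at 27.4, 32.2 and 39.5 CPM in bTBI retinas (log2 fold change -0.61, SE 0.08, adjusted p = 0.000271). Dpp10, another partner of Kv4 channels, was at 23.7, 24.3 and 29.1 CPM against 11.1, 15.5 and 20.97 CPM (log2 fold change -0.67, SE 0.11, adjusted p = 0.00123). Neither of these genes overlapped between groups, nor did Kcnab3, a beta subunit (log2 fold change -0.39, adjusted p = 0.00101). Of 23 scaffold genes 5 were called lower (median -0.19), among them Ank1, an ankyrin (log2 fold change -0.45, adjusted p = 0.000409), Sptbn4, the beta-IV spectrin of initial segments and nodes (log2 fold change -0.41, adjusted p = 0.000609), and Epb41l1, a protein 4.1 gene (log2 fold change -0.27, adjusted p = 0.00124). Of 38 calcium channels and pumps 1 was called lower, the plasma membrane pump Atp2b3 (log2 fold change -0.44, adjusted p = 0.00124).

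A minority of synaptic genes was called lower, most of them by small amounts, beside 0.985% of all genes called lower. Of 30 genes of SNARE fusion 5 were called lower, of 53 synaptic vesicle and active zone genes 5, and of 42 postsynaptic scaffolds and synaptic organisers 8, with 0 higher in each list. The medians were -0.06, -0.11 and -0.12. Vamp1, a vesicle SNARE of fast synapses, was at 96.5, 103 and 119 CPM in sham and at 33.6, 47.6 and 76.6 CPM in bTBI retinas and fell by 1.14 on the log2 scale (SE 0.15, adjusted p = 0.000334). Complexins hold vesicles ready for release, and Cplx1 was at 183, 196 and 242 CPM against 81.2, 105 and 154 CPM (log2 fold change -0.92, SE 0.12, adjusted p = 0.000284) while Cplx2 was at 312, 335 and 344 CPM against 238, 259 and 287 CPM (log2 fold change -0.36, SE 0.05, adjusted p = 0.000356). The groups did not overlap in either complexin. Apba1 (log2 fold change -0.39, adjusted p = 0.000275), Syt2, a fast calcium sensor of release (log2 fold change -0.40, adjusted p = 0.000609), and Rph3a, rabphilin (log2 fold change -0.32, adjusted p = 0.0008), led the vesicle list by p. Dlgap3 (log2 fold change -0.43, adjusted p = 0.000238), Iqsec3, of inhibitory synapses (log2 fold change -0.33, adjusted p = 0.000331), and Lgi2, a secreted organiser (log2 fold change -0.61, adjusted p = 0.000517), led the postsynaptic list. All 22 GABA and glycine receptor genes had a log2 fold change below 0, 12 of them with an unadjusted p under 0.05, but 0 were called by limma, and of 25 glutamate receptor genes 0 were called and 8 had such a p, against 17.3% of all genes.

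Some nicotinic receptors, the acetylcholine receptors that RGCs carry, were called lower. Of 17 receptor and modulator genes 3 were called lower (median -0.18), against 0.985% of all genes. Chrna6 was at 174, 192 and 207 CPM in sham and at 103, 121 and 165 CPM in bTBI retinas (log2 fold change -0.62, SE 0.08, adjusted p = 0.000388), Chrnb3 at 128, 132 and 146 CPM against 83.1, 94.8 and 119 CPM (log2 fold change -0.48, SE 0.07, adjusted p = 0.00097), and the modulator Lynx1 at 306, 319.6 and 340.1 CPM against 219, 224 and 269 CPM (log2 fold change -0.48, SE 0.05, adjusted p = 0.000174). All 3 were below every sham retina in 6 of 6 bTBI retinas. Htr1b, a serotonin receptor, was at 10.04, 11.2 and 12.4 CPM against 4.67, 7.01 and 7.21 CPM (log2 fold change -0.75, SE 0.10, adjusted p = 0.000426). Of 30 calcium buffers and sensors 5 were called lower and 19 had an unadjusted p under 0.05 below 0, against 8.93% of all genes (median -0.20), with the visinin-like sensor Vsnl1 at 136, 148 and 163 CPM against 81.6, 93.8 and 128 CPM (log2 fold change -0.63, SE 0.08, adjusted p = 0.000373). Rgs4, a brake on G protein signals, was at 118, 128 and 143 CPM against 54.0, 68.8 and 102 CPM (log2 fold change -0.84, SE 0.11, adjusted p = 0.000325), and Rasgrp2, an activator of Rap, was lower as well (log2 fold change -0.81, adjusted p = 0.000784). For comparison, 11 of the 13 pan-RGC markers that the study describes in these samples were called lower at a median of -0.55, which is no independent evidence of their direction, and of 30 further RGC genes 6 were called lower at a median of -0.22.

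Link proteins tie hyaluronan to proteoglycans in perineuronal nets. Hapln4 was at 20.4, 24.9 and 26.5 CPM in sham and at 13.98, 15.2 and 19.9 CPM in bTBI retinas (log2 fold change -0.60, SE 0.08, adjusted p = 0.000503), and Hapln1 at 1.37, 2.10 and 2.99 CPM against 0.227, 0.627 and 1.18 CPM (log2 fold change -0.89, SE 0.15, adjusted p = 0.00193). With the testican Spock2 (log2 fold change -0.32, adjusted p = 0.000347) they were the 3 called of 16 genes of this list, and without the 3 retinas their log2 fold changes were -0.52, -0.77 and -0.29. Among regulators of the sodium pump, Fxyd7 (log2 fold change -0.55, adjusted p = 0.000954) and the subunit Atp1b1 (log2 fold change -0.34, adjusted p = 0.00235) were called lower of 13 genes. The purinergic list had 1 call in each direction among 20 genes, with P2rx7, an ATP receptor of microglia, higher (log2 fold change 0.81, adjusted p = 0.00278) and Panx2, a pannexin, lower (log2 fold change -0.59, adjusted p = 0.000407). Of 50 semaphorins, plexins and ephrins the receptors Epha2 (log2 fold change 0.80, adjusted p = 0.000754) and Plxnd1 (log2 fold change 0.57, adjusted p = 0.00454) were called higher. Ptgfr, the prostaglandin F receptor, was the 1 call among 12 prostaglandin genes (log2 fold change 1.17, adjusted p = 0.000174).

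Few metabolic genes were called. Of 26 genes of cholesterol synthesis 15 had an unadjusted p under 0.05, all below 0, against 8.93% of all genes, and the median was -0.19, and -0.17 without the 3 retinas. Eno2, the neuronal enolase, was the 1 called of 27 glycolysis genes (log2 fold change -0.25, adjusted p = 0.00262). Of 76 genes of oxidative phosphorylation 0 were called by limma and 2 had an unadjusted p under 0.05, with a median of -0.07, and of 56 ribosomal protein genes 0 were called and 0 had such a p (median 0.01). Lists of rods (20 genes, 2 with an unadjusted p under 0.05), cones (15, 2 such), amacrine and horizontal cells (22, 3 such) and clock genes (19, 0 such) held 0 calls by limma, and of 19 bipolar cell genes 1 was called. Of 43 kinesin, dynein and dynactin genes 0 were called by limma and 12 had an unadjusted p under 0.05, against 17.3% of all genes.

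Of the 336 called genes 134 belonged to no list, 65 higher and 69 lower. Among the lower ones, Ctxn3, which encodes cortexin 3, was at 6.93, 9.89 and 13.4 CPM in sham and at 2.96, 4.26 and 8.48 CPM in bTBI retinas (log2 fold change -0.996, SE 0.18, adjusted p = 0.00326), and Cyp2s1, a cytochrome P450 gene, was at 8.27, 9.81 and 10.96 CPM against 2.99, 5.34 and 7.30 CPM (log2 fold change -0.83, SE 0.14, adjusted p = 0.00221). Several noncoding transcripts were called. 6430562O15Rik, a processed transcript that overlaps Mrps27 on the opposite strand on chr13:99396924-99412876, was at 10.6, 11.3 and 12.2 CPM in sham and at 18.6, 24.4 and 26.9 CPM in bTBI retinas (log2 fold change 0.95, SE 0.09, adjusted p = 7.87e-05). Mrps27, a mitochondrial ribosomal protein gene, stood at a log2 fold change of 0.10 (adjusted p = 0.483). Gm15983, annotated as antisense to Eef2kmt on chr16:5254786-5289621, was at 8.803, 10.6 and 14.1 CPM against 16.8, 29.8 and 37.6 CPM (log2 fold change 1.33, SE 0.15, adjusted p = 0.000238), while Eef2kmt was at a log2 fold change of 0.24 (adjusted p = 0.224). Gm48236, a long intergenic RNA that overlaps Ahr on the opposite strand, was called higher (log2 fold change 0.94, adjusted p = 0.000694) and Gm9866, another long intergenic RNA, lower (log2 fold change -0.66, adjusted p = 0.00167). The libraries keep strand, but a strand setting for the counting is not given in the sources used here, so reads of overlapping partners may have been mixed.

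**Figure D3:**
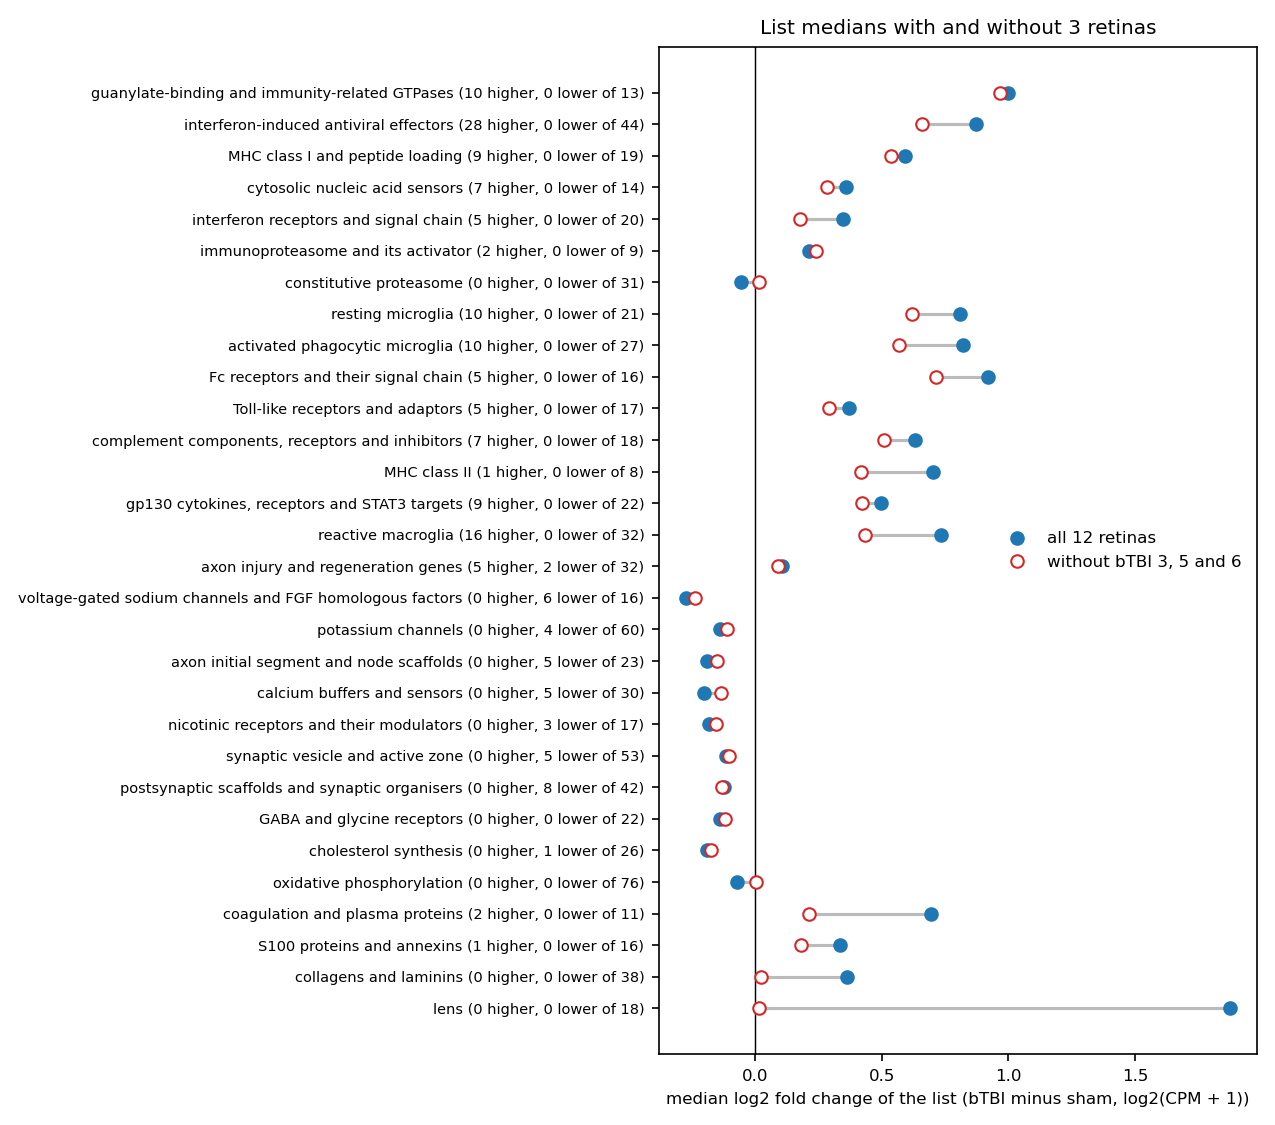
Median log2 fold change (x axis, bTBI against sham) of 30 gene lists (y axis, with the called members of the measured ones), from all 12 retinas (filled) and without bTBI 3, 5 and 6 (open). Interferon, MHC class I, microglia and channel lists keep the side of 0 they had, while the lens and the collagen lists come close to 0.

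Some lists came close to 0 when the 3 retinas were left out. These retinas were picked for their lens and myelin levels, so that lower values of lens and myelin genes without them follow from the choice and are given as a description. None of the lens, myelin, collagen and laminin genes had been called. The 18 lens genes had a median log2 fold change of 1.87 with all retinas, 0.53 without bTBI 5 and 6 and 0.01 without all 3. Cryaa, a crystallin of the lens fiber, was at 2.10, 47.6 and 422 CPM in sham and at 18.2, 109 and 4541 CPM in bTBI retinas, with 2003 and 4541 CPM in bTBI 5 and 6. Its log2 fold change was 2.27 (SE 1.32, adjusted p = 0.423) with all retinas, 0.28 without bTBI 5 and 6 and -0.25 without all 3, and Crybb2 went from 2.58 to 0.15. Cryba1 (2.28 to -0.03), Cryba2 (2.15 to -0.11) and Crygs (2.07 to -0.21) moved alike.

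Among myelin genes single members stood out in bTBI 3. Mbp, the myelin basic protein, was at 38.3, 40.2 and 42.0 CPM in sham retinas and at 2531 CPM in bTBI 3, and the other bTBI retinas had 35.7 to 139 CPM. Its log2 fold change was 1.22 (SE 0.80, adjusted p = 0.5) and 0.27 without bTBI 3. The myelin score of bTBI 4 was also above every sham retina, at 5.13 against 4.48 to 4.92, and the median of the 11 myelin genes was 0.09 with all retinas and 0.11 without bTBI 3, 5 and 6. Apod, a lipocalin of glia and nerve, went from 2.09 to 1.27 on that omission. Of the 38 measured collagens and laminins 0 were called by limma and 13 had an unadjusted p under 0.05 against 17.3% of all genes, and their median went from 0.36 to 0.02 without the 3 retinas. Col3a1, a fibrillar collagen, was at 1.36, 1.59 and 2.36 CPM in sham and at 70.6, 5.44 and 4.89 CPM in bTBI 3, 5 and 6, and its log2 fold change went from 0.99 (SE 0.66, adjusted p = 0.511) to -0.38. Col1a1 (0.91 to -0.23) and the small proteoglycan gene Dcn (1.0 to -0.55) moved in the same way. The median of 11 coagulation and plasma protein genes went from 0.70 to 0.21, and 2 of them were called higher. Pros1, the anticoagulant protein S (log2 fold change 0.95, adjusted p = 0.000499), was at a log2 fold change of 0.84 without the 3 retinas, and A2m, the protease inhibitor alpha-2-macroglobulin (log2 fold change 0.82, adjusted p = 0.00273), at 0.73.

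Single bTBI retinas differed in which gene group was strongest. Scores, the mean log2(CPM + 1) of a list, are given as differences from the sham mean. For the GTPases they ran from 0.47 in bTBI 2 to 1.23 in the lens-rich bTBI 6, and for antiviral effectors from 0.30 in bTBI 2 to 1.22 in bTBI 6. For complement the highest was the myelin-rich bTBI 3 at 1.34, and for resting microglia bTBI 3 at 1.23, against 0.65 in bTBI 6. For axon injury genes bTBI 1 was highest at 0.48 and bTBI 6 lowest at 0.16, and for sodium channels and FGF homologous factors bTBI 1 was lowest at -0.51 and bTBI 2 nearest to sham at -0.14. The retina with the strongest fall in channel genes and rise in injury genes, bTBI 1, had lens and myelin scores of 0.05 and 0.04, within the range of the sham retinas. The part of lens and myelin RNA in the changes of bTBI 1 and in the highest values of bTBI 3, 5 and 6 was not tested.

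**Figure D4:**
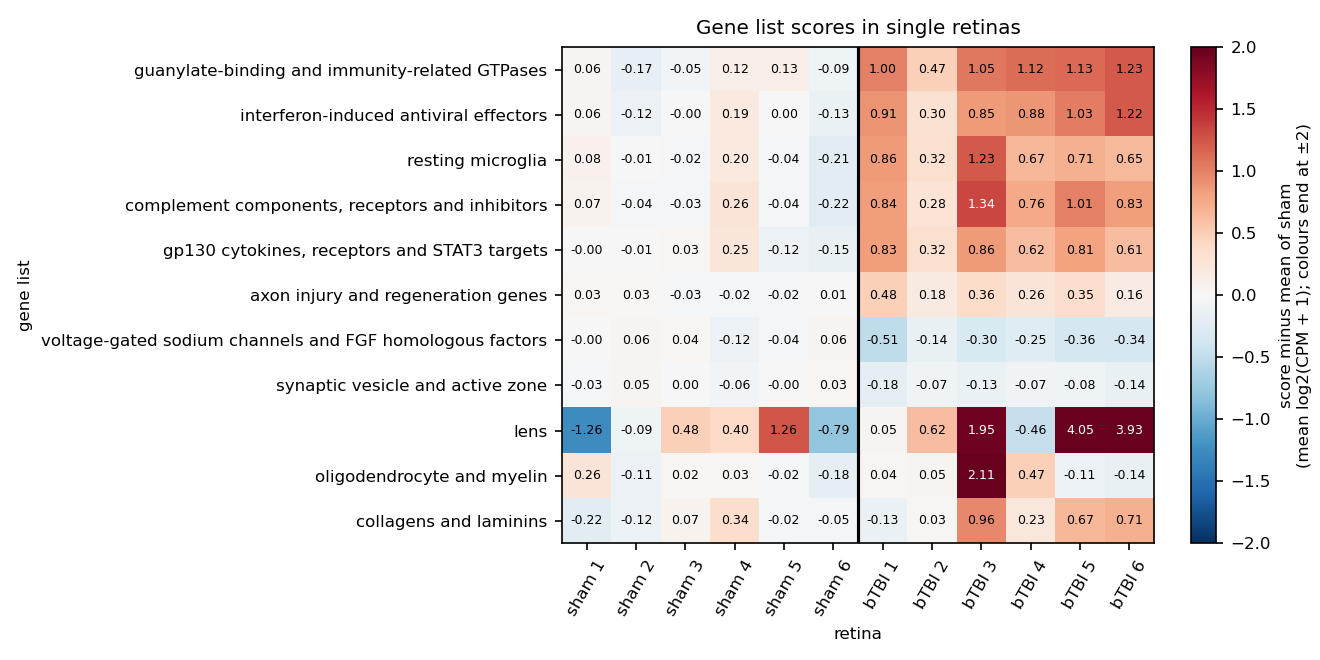
Score of 11 gene lists (rows, mean log2(CPM + 1) minus the sham mean, as number and color) in the 12 retinas at 8 days (columns, sham left of the line). Interferon, microglia, complement and gp130 scores are above 0 and channel and vesicle scores below 0 in all 6 bTBI retinas, and lens and myelin scores are high in bTBI 3, 5 or 6.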

How the data were processed

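RNA of 12 retinas, 6 bTBI and 6 sham at 8 days, was compared, and the table of the later timepoint was not used. The authors made stranded libraries of polyadenylated RNA. Reads were mapped by them with STAR to GRCm38 and assigned to genes with featureCounts. The authors used edgeR for their own test. As deposited, the signal values are gene counts scaled by an effective library size per retina, like CPM, for 14922 genes. Within a retina they are whole multiples of 1 step, with a largest residual of 2.3e-10 of a step, and the depth was taken from these multiples. No count test was run on them, and all tests below are of the scaled values.

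Values were transformed to log2(CPM + 1). They were fitted with limma (version 3.58.1, with statmod 1.5.0, under R 4.3.3), using a variance prior with a mean trend and without the robust option, and p-values were adjusted by Benjamini-Hochberg over 14922 genes. Calls needed an adjusted p under 0.005. The fit was tested on simulated data. Symbols were matched by Ensembl identifier for 14907 genes. Of 81 gene lists, the called members were counted and the median log2 fold change taken, with no test of a list. Members and lists were chosen with earlier results of these data known.

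Genes were named by a rule. It took up to 3 called members of each list and direction by smallest p, the 15 called genes with the largest change in each direction and a mean of at least 1 CPM that the paper does not name, the 5 genes that moved most in each omission of bTBI 3, 5 and 6, called genes that fell below 0.5 of their log2 fold change there, called members of symbol families with 3 or more calls, and defining markers. Beyond the rule, the called genes 6430562O15Rik, Cebpd, Ifih1, Igtp, Il6st, Irgm2, Osmr, Rnf213, Shisa5, Tap1 and Trem2 were named after their values were seen. Uncalled genes such as C3, Dcn and Stat2 were also named to show how members differ. Some genes that the rule takes are not reported here.

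As alternatives, values were rescaled (median of ratios, or table total), genes under 1 CPM in more than 6 retinas were dropped, the pseudocount was set to 0.1, the prior was made robust or untrended, the replicate number was added as a block, and the threshold was set to 0.05. Retinas were left out as well, namely bTBI 5 and 6, bTBI 3, these 3 together and each of the 12 in turn.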

Additional observations from a re-analysis of the deposited data

Results flagged for a closer look

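In 336 groups of 6 retinas, for 157 named genes and 11 list scores, 34 held a retina whose gap to the nearest other one took up more of the whole range, on the log2 scale, than Dixon's critical value at 95% allows. Chance gives this in about 5% of independent groups of normally distributed values. These groups come from the same 12 retinas, and list scores hold some of the same genes. The 34 are therefore no count of independent events. No explanation of these values was tested.

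Replicate 2 of the bTBI group stood apart most often, and on the side of the sham retinas. Its GTPase score was 2.70, and it was lowest of the bTBI retinas for Gbp2 (13.6 CPM), Igtp (11.3 CPM), Irgm2 (7.82 CPM), the RNA sensors Ddx58 (14.5 CPM) and Ifih1 (8.01 CPM), H2-D1 (93.2 CPM), H2-K1 (58.0 CPM), Cd180 (1.46 CPM) and Gm15983 (16.8 CPM). It was highest of them for genes called lower, namely Lynx1 (269.5 CPM), Epb41l1 (169.5 CPM), Vsnl1 (128 CPM), Hapln4 (19.9 CPM) and Ctxn3 (8.48 CPM).

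The myelin-rich bTBI 3 had the highest myelin score (6.76) and was highest for Mbp (2531 CPM), Apod (229 CPM), Col3a1 (70.6 CPM) and C3 (38.6 CPM). Replicate 1 of the bTBI group was highest for Ptgfr (3.99 CPM).

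Among sham retinas, replicate 4 was highest for H2-D1 (87.4 CPM), Grn (62.6 CPM), H2-K1 (59.7 CPM), C4b (20.4 CPM), Serping1 (20.3 CPM), Irgm1 (13.3 CPM) and S100a6 (9.81 CPM), all of which were called higher in bTBI. Sham 1 was highest for Cplx1 (242 CPM) and Dpp10 (29.1 CPM), which were called lower. Sham 6 was highest for Gm48236 (2.42 CPM) and lowest for Oasl2 (14.3 CPM) and Hmox1 (3.73 CPM), and sham 3 was lowest for Mmp9 (26.3 CPM).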

How the results depend on the processing

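The number of called genes was 336 with 189 higher and 147 lower. It was 324 to 340 under both other scalings, the minimum level, a pseudocount of 0.1 and a robust prior, and 237 with a prior without trend. Without bTBI 5 and 6 it was 112 (68 higher, 44 lower), without bTBI 3, 5 and 6 it was 8 (8 higher, 0 lower), and at an adjusted p under 0.05 it was 907 (450 higher, 457 lower). Single omissions gave 189 to 486 calls, 105 to 273 higher and 84 to 213 lower. Of 81 lists, 57 held a called member, and 11 did without bTBI 3, 5 and 6. Fewer bTBI retinas enter these omissions. All 336 called genes kept their sign in every alternative that tested them. For the 291 without overlap, the sign in the omissions of retinas was fixed in advance. With the replicate number as a block 293 genes were called (172 higher, 121 lower), while retinas of the same number correlated in their deviations from the group means at -0.25 to 0.54, with 2 of 6 pairs above 0.1, so the numbers were not taken as pairs.

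Among these named genes, directions turned only in uncalled ones. Without bTBI 3, 5 and 6 the log2 fold change was -0.25 for Cryaa, -0.029 for Cryba1, -0.11 for Cryba2, -0.21 for Crygs, -0.23 for Col1a1, -0.38 for Col3a1 and -0.55 for Dcn. With 1 retina left out that of Cldn5 ran from -0.1336 to 0.0123, above 0 without bTBI 4. Of 206 named genes, 167 were on the same side but lost the threshold without bTBI 3, 5 and 6, 92 without bTBI 5 and 6, 40 with a prior without trend and 18 with the block. The planned count tests were not run. The values are whole multiples of 1 step, but a condition set for using them as reads, that the lowest values of each retina are whole multiples of the smallest one, was not met in most retinas of this filtered table. Depth limits genes near 1 CPM, whose log2 fold change is held down by the pseudocount.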
